A study of Mus musculus with 8 samples.

Results

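The genes described here are 50 cell cycle genes, 24 of S phase and 26 of G2 and mitosis (G2/M), out of 32285 genes counted in single cells of the mouse spleen. They were taken by symbol from a fixed list, and all 50 were found. The study compared cKO mice (Eif3e fl/fl Cγ1Cre Rosa26-YFP LSL) with control mice (Cγ1Cre Rosa26-YFP LSL) at 2 months of age, to learn which spleen cells change when the translation factor subunit eIF3e is deleted in activated B cells. Cells were sorted either as total live splenocytes or as YFP+ cells, and each of these 4 groups was sequenced in 2 batches, which gave 8 libraries, each from pooled mice. Cγ1Cre is turned on when an activated B cell transcribes the Ig γ1 locus. Both genotypes carry the Cre and the YFP reporter, and YFP marks cells in which Cre was active at some time, together with their descendants. The total sort was not selected for YFP. Libraries are named by genotype, sort and batch number, and values are given in the order batch 1, batch 2.

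A resting lymphocyte sits outside the cycle in G0. When it enters the cycle, the retinoblastoma family releases E2F factors, which switch on the genes for DNA replication. Later MYBL2 and FOXM1, acting with the MuvB proteins, switch on the mitotic genes. Germinal center B cells (GCBs) are among the fastest dividing cells of the body, plasmablasts divide before they become resting plasma cells, and naive B and T cells rarely divide. The S phase genes include the subunits of the MCM helicase that unwinds DNA (Mcm2 to Mcm7), the sliding clamp Pcna, the nucleotide enzymes Rrm1, Rrm2, Tyms and Dut, the licensing factors Cdc6 and Cdt1, and cyclin E (Ccne1, Ccne2). The G2/M genes include cyclins A and B (Ccna2, Ccnb1, Ccnb2) with their kinase Cdk1, topoisomerase II alpha (Top2a), the mitotic kinases (Plk1, Aurka, Aurkb, Bub1, Bub1b, Ttk), kinesins (Kif11, Kif20a, Kif23, Cenpe), the activator of the anaphase-promoting complex Cdc20 and the proliferation marker Mki67.

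The promoters of both sets differ in the letters bound by these factors, and 5 of them are shown because they carry the motifs by which the 2 sets are told apart. A promoter (the 250 bases before to 50 bases after the transcription start, RefSeq, GRCm38.p6) was given for 43 of the 50 genes, 21 of S phase and 22 of G2/M. Mcm4, Gins2, Ccne2, Ccna2, Aurkb, Tpx2 and Kif20a had none. On either strand, an E2F motif (TTTCCCGC, TTTGGCGC, TTTCGCGC or TTTGCCGC) was found in 10 of the 21 S phase promoters (47.6%), in 1 of the 22 G2/M promoters (4.55%, Cdk1) and in 704 of the 27025 genes with a promoter (2.60%). A cell cycle homology region (CHR, TTTGAA or TTCGAA) was found in 17 of the 22 G2/M genes (77.3%), in 4 of the 21 S phase genes (19.0%) and in 21.7% of all genes. The CCAAT box, which needs fewer letters and is frequent, was found in 86.4%, 61.9% and 41.1%, and a CHR together with a CCAAT box in 77.3%, 14.3% and 8.61%. In Mcm5 and Mcm6 an E2F match on one strand overlaps one on the other, and TTCGAA reads the same on both strands. The 170 bases before the start are printed 5′ to 3′ on the strand of the gene, with E2F, CHR and CCAAT matches on either strand in capitals. A match is a description of the letters.
Mcm5, chr8:75109339-75109508, plus strand, GRCm38.p6: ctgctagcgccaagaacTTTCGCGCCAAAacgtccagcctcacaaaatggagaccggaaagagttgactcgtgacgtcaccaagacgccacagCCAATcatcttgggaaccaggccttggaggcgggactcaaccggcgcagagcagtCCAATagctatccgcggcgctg
Mcm6, chr1:128359706-128359875, minus strand, GRCm38.p6: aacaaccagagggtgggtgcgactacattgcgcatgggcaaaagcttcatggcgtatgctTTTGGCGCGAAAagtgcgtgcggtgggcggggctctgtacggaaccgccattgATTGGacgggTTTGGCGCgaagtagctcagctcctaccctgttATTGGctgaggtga
Mki67, chr7:135716380-135716549, minus strand, GRCm38.p6: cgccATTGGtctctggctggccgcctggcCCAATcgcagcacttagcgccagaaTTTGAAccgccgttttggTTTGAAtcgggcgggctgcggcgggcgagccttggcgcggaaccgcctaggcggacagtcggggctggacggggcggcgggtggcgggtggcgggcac
Top2a, chr11:99024190-99024359, minus strand, GRCm38.p6: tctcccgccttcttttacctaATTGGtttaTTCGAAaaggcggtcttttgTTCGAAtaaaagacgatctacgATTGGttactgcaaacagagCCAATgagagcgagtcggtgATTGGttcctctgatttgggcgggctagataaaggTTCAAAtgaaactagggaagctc
Cdk1, chr10:69352913-69353082, minus strand, GRCm38.p6: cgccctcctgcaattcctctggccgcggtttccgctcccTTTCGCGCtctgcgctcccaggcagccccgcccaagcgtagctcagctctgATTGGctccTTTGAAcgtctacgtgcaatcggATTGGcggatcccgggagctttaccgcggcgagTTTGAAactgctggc
Mcm5 and Mcm6 hold E2F letters and no CHR, Mki67 and Top2a hold CHR and CCAAT letters and no E2F motif, and Cdk1 holds all 3.

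The 8 libraries held 9276 to 11652 cells after filtering (83704 of 83967 barcodes) and 71868375 to 105099466 unique molecular identifiers (UMIs, one per captured RNA molecule), with a median of 5250 to 6811 UMIs per cell. Eif3e itself was at 227 to 289 CPM (UMIs of a gene scaled to the same total in each library) in all 8 libraries with overlapping genotypes. The deleted exons are not stated in the sources used, so that the UMIs of Eif3e do not check the genotype. Xist, which female cells express, was at 524 and 638 CPM in the batch 1 cKO libraries and at 0.158 to 0.348 CPM in the other 6. Ddx3y, which male cells express, was at 72.8 and 52.0 CPM in the batch 1 cKO libraries and at 80.3 to 140 CPM in the others. Sex thus differed between pools of mice, and the batch 1 cKO libraries held both. High Xist was found in cKO only, so that sex and genotype cannot be fully told apart. Pairs of libraries shared 51 to 102 cell barcodes, and no shared barcode had the same counts in both. Cells were grouped into classes from marker genes, after clustering without any cell cycle gene, and a class name means cells with those markers (GCB-like, naive B-like and so on). In control libraries 1 cluster, B4, held at least 99.0% of GCBs and 1 cluster, B7, at least 89.9% of activated B cells (pre-GCB or activated B), whereas in cKO 81.5% to 90.2% of GCBs lay in cluster B14 and the activated B cells were divided among clusters B7, B8 and B11. Naive B cells lay mainly in cluster B0 in control and in clusters B1 and B2 in cKO. Tests between genotypes were edgeR quasi-likelihood F tests on UMIs summed per library and class, with Benjamini-Hochberg adjustment over all genes of the class and a threshold of 0.05, and n was 2 libraries per group throughout. CPM beside a fold change are scaled by TMM, a correction for library composition. The study describes the libraries of a group as independent pools of mice. These pools also differ in batch, so that p-values without the batch as a block measure the spread between pools and batches together. A fit with the block has little left to estimate the spread between libraries. Its p-values therefore lean on a spread shared across genes or classes. Within 1 sort, the share of all genes called is given for the edgeR fit without the block. Counts under other settings stand without that share and describe how the calls depend on the setting.

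The G2/M genes separated dividing from resting B cells more sharply than the S phase genes did. In the control YFP+ libraries, the mean CPM of GCBs exceeded that of naive B cells 14.4-fold (Tacc3, which stabilizes spindle fibers) to 138-fold (Cenpf, a kinetochore protein) across the 26 G2/M genes, with a median of 53.6-fold. The 24 S phase genes ranged from 1.04-fold (Cdt1) to 61.6-fold (Clspn, a replication checkpoint mediator), with a median of 11-fold. Mki67 was 90.4-fold, Top2a 45.6-fold, Cdk1 64.0-fold and Ccnb1 43.2-fold higher in GCBs, compared with 46.2-fold for Rrm2, 19.5-fold for Tyms, 12.8-fold for Mcm5 and 6.16-fold for Pcna. Cdt1 was thus nearly as abundant in naive B cells as in GCBs, and a UMI of Cdt1 does not mark a dividing cell. These ratios describe the clusters and carry no test.

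A cell was called cycling when at least 5 UMIs of the 50 genes were left after thinning it to 3000 UMIs. Cells with fewer than 3000 UMIs were left out, 3.23% to 6.48% of a library except for 19.3% in the second control YFP+ library. The loss there fell mostly on resting cells, 1546 of its 2484 naive B cells against 60 of its 3424 GCBs. Cycling cells made up 73.3% and 83.7% in the control libraries and 87.9% and 90.2% in the cKO libraries of total GCBs, and 72.9% and 86.8% in the control libraries and 92.2% and 89.5% in the cKO libraries of YFP+ GCBs. In naive B cells, which should rarely divide and so give the background of this measure, the share was 1.52% and 2.23% in the control libraries and 1.32% and 2.00% in the cKO libraries of the total sort, and 2.42% and 3.52% in the control libraries and 2.98% and 2.72% in the cKO libraries of the YFP+ sort. With at least 8 UMIs required, it was at most 0.231% in naive B cells. Without thinning, at least 5 UMIs were found in 93.6% to 99.2% of GCBs but also in 5.68% to 23.8% of naive B cells, so that the thinned share is used throughout. GCBs therefore stood far above the background in every library and the genotypes differed by less than the test could detect, with a log2 ratio of the cKO to the control share of 0.18 ± 0.19 (SE) in the total sort and 0.19 ± 0.19 in the YFP+ sort (adjusted p = 0.712 and 0.425, quasi-likelihood test on cell numbers). Both cKO values lay above both control values in each sort. The control shares of the total sort rest on 60 and 49 GCBs.

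**Figure D1:**
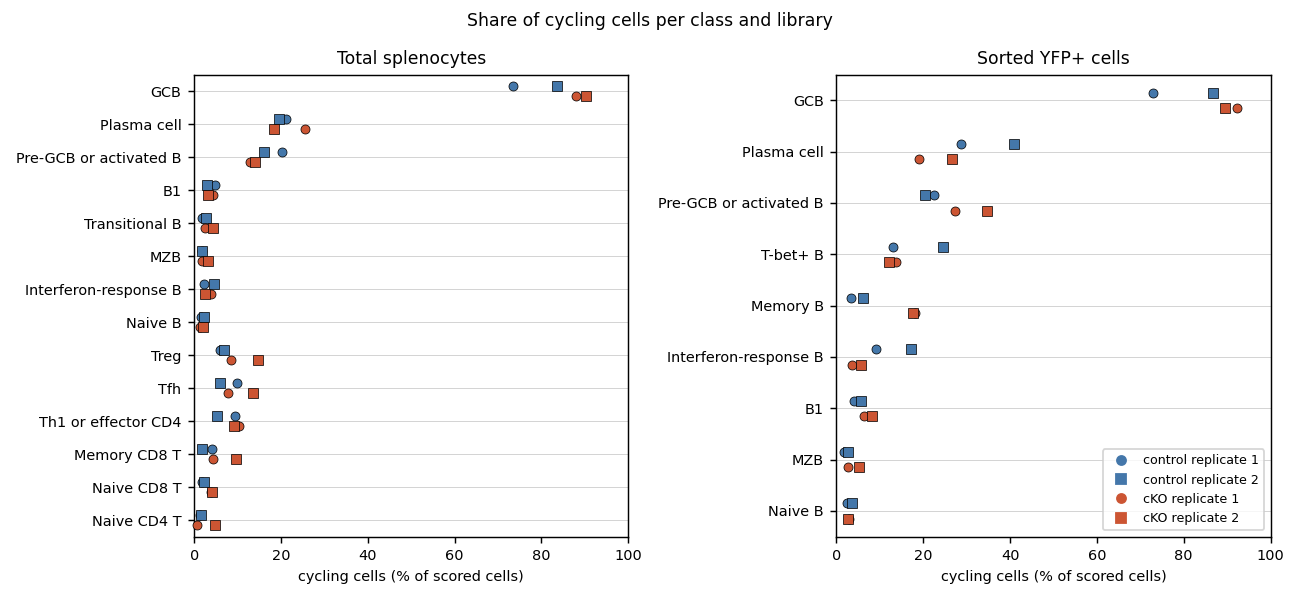
Share of cycling cells (percent of scored cells, at least 5 UMIs of the 50 genes after thinning to 3000) in each class and library, control and cKO, total sort and YFP+ sort, 1 point per library. GCBs sat between 72.9% and 92.2%, plasma and activated B cells between 12.9% and 41.0%, and naive B cells between 1.32% and 3.52%.

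Cycling cells were also frequent among plasma cells, where the share was 28.7% and 41.0% in the control libraries and 19.1% and 26.7% in the cKO libraries of the YFP+ sort, lower in both cKO libraries (log2 ratio -0.62 ± 0.40, adjusted p = 0.272, and adjusted p = 0.0448 with the batch number as a block). Memory B cells of the YFP+ sort were at 3.43% and 6.09% in the control libraries and 18.0% and 17.6% in the cKO libraries (log2 ratio 1.88 ± 0.67, adjusted p = 0.106, and 0.0448 with the block), on 11 of 61 and 9 of 51 cKO cells. B1 cells of the YFP+ sort were at 4.07% and 5.57% in the control libraries and 6.32% and 8.31% in the cKO libraries (log2 ratio 0.59 ± 0.51, adjusted p = 0.388, and 0.0478 with the block). Interferon-response B cells of the YFP+ sort were at 9.17% and 17.2% in the control libraries and 3.59% and 5.60% in the cKO libraries (log2 ratio -1.38 ± 0.66, adjusted p = 0.204, and 0.0456 with the block), and in this class the summed level of 8 GCB markers was 305 and 640 CPM in control and 179 and 212 CPM in cKO, with S1pr2 at 0 in the second cKO library. The class joins clusters B13 and B15, and cluster B15, of 27 cells whose second-best markers were those of GCBs, gave 6 and 11 of the cycling control cells and none of the cycling cKO cells. In cluster B13 alone 4 of 102 and 0 of 49 scored control cells and 7 of 195 and 14 of 249 cKO cells were cycling (log2 ratio 0.82 ± 1.04, adjusted p = 0.535, and 0.697 with the block), so that the direction of the class turned without cluster B15. T-bet+ B cells were at 13% and 24.6% in the control libraries and 13.6% and 12.1% in the cKO libraries, with overlapping genotypes. In none of the 15 classes tested in the total sort or the 9 of the YFP+ sort did the cycling share pass the test without the block, and these 4 YFP+ classes passed with it. With the block little is left to estimate the spread between libraries, so that these p-values lean on a spread shared across classes. Memory B cells also passed when cells were thinned to 2000 UMIs (adjusted p = 0.0131) or when at least 8 UMIs were required (0.00308). In the exact permutation test of 2 against 2 libraries the smallest possible two-sided p is 0.333, which cannot pass the threshold.

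The cycling share of activated B cells passed the test in neither sort with the main settings. Its direction was not the same in each sort and cluster, and the difference between the sorts was not tested for the share. The share of cycling cells was 20.3% and 16.1% in the control libraries and 12.9% and 13.9% in the cKO libraries of the total sort (log2 ratio -0.43 ± 0.25, adjusted p = 0.668), and 22.5% and 20.4% in the control libraries and 27.4% and 34.7% in the cKO libraries of the YFP+ sort (log2 ratio 0.53 ± 0.27, adjusted p = 0.204). In cluster B7, the only activated cluster with at least 242 cells in every library, the direction in the YFP+ sort was the opposite: 20.3% and 19.0% in the control libraries and 7.78% and 13.2% in the cKO libraries were cycling (log2 ratio -0.92 ± 0.46, adjusted p = 0.161). Most dividing activated cells of cKO lay outside that cluster, in cluster B11 (929 and 1169 YFP+ cells, against 13 and 10 in control, with an Mki67 UMI in 66.3% of its cells and in 10.9% of those of cluster B7), so that a change within cluster B7 and this split cannot be told apart. Over the whole YFP+ class the share passed the test with cells thinned to 2000 UMIs (adjusted p = 0.0431). It also passed with a Leiden resolution of 0.5 (0.00106), where the class was 1 cluster of 1530 and 1610 YFP+ cKO cells in place of 2807 and 2431. Total cells of cluster B7 were at 20.4% and 16.0% in the control libraries and 14.4% and 10.9% in the cKO libraries. The remaining YFP+ activated cells of cKO mice fell into a cluster with few and a cluster with many cycling cells. The leading genes of cluster B8 began with Ryr2 and included the early response genes Egr1, Egr2 and Egr3, and also Xist. It held 1328 and 844 cells of the cKO YFP+ libraries, and Xist was high in the first library only. The part of sex in this cluster was not tested. With at least 5 UMIs required, 2.66% and 3.00% of the YFP+ cKO cells of cluster B8 were cycling, within the range of naive B cells. Of cluster B11, whose leading genes include Fabp5, Timd2, Socs2 and the CDK inhibitor Cdkn1a, 74.7% (683 of 914 cells) and 65.2% (754 of 1157 cells) were cycling. This was far above naive B cells and below the GCBs of the same libraries. With at least 8 UMIs required, the share was 66.1% and 55.7% in cluster B11 and 86.2% and 86.2% in those GCBs. Clusters B8 and B11 held 47.3% and 33.1% of the activated cells of the first cKO YFP+ library, and 34.7% and 48.1% of the second, compared with at most 7.16% for either in control YFP+ libraries. The markers of naive B cells scored above those of activated B cells in cluster B8, whose place in the class rests on Egr2 and Egr3 among its leading genes.

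The classes that made up the cycling pool also differed between genotypes. This makeup depends on the size of each class as well as on its cycling share, and it carries no test. Among cycling B-lineage cells of the YFP+ sort (1783, 3830, 1298 and 1282 cells), GCBs made up 67.0% and 76.2% in control and 24.7% and 14.7% in cKO, and activated B cells 3.25% and 1.46% in control and 58.6% and 65.0% in cKO. Plasma cells made up 14.1% and 11.1% in control and 1.62% and 1.87% in cKO, T-bet+ B cells 8.08% and 7.10% in control and 0.462% and 0.312% in cKO and naive B cells, whose share is the background of the measure, 2.30% and 0.862% in control and 10.4% and 13.8% in cKO. With at least 8 UMIs required, naive B cells were 1 of 1493 and 1 of 3363 cycling cells in control and 8 of 996 and 15 of 928 in cKO. In the total sort (228, 291, 357 and 460 cells) the order was the reverse for GCBs, which made up 19.3% and 14.1% in control and 42.6% and 45.9% in cKO, and activated B cells made up 30.3% and 26.1% in control and 24.4% and 20.2% in cKO. The genotypes did not overlap for either class in either sort. In all B-lineage cells together the cycling share was 21.7% and 41.3% in the control libraries and 14.5% and 12.9% in the cKO libraries of the YFP+ sort, and 4.03% and 4.07% in the control libraries and 5.38% and 6.82% in the cKO libraries of the total sort, so that cKO was lower among YFP+ cells and higher among total cells. The share of the second control YFP+ library is 3830 of 9284 scored cells, with 2106 of its 11390 B-lineage cells left out as too shallow. Without thinning the YFP+ shares were 43.8% and 48.4% in control and 33.9% and 36.5% in cKO. The total shares were then 20.8% and 17.6% in control and 19.5% and 28.5% in cKO, with overlapping genotypes. In sums over several classes, fewer cells of a type and less RNA per cell cannot be told apart.

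**Figure D2:**
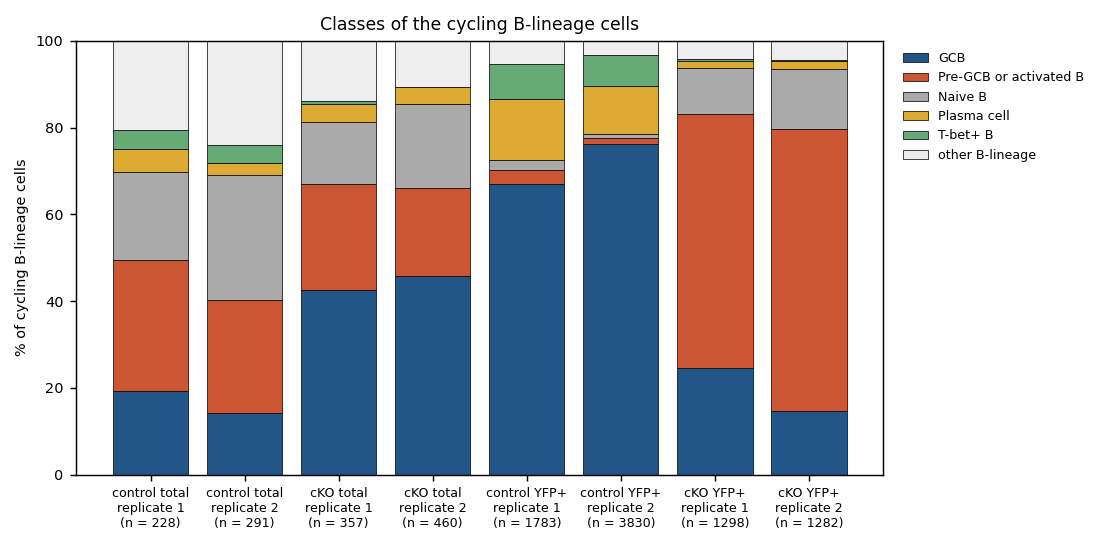
Makeup of the cycling B-lineage cells of each library by class, in percent of the cycling cells, 1 stacked bar per library. In YFP+ control libraries GCBs filled 67.0% and 76.2% of the bar, and in YFP+ cKO libraries activated B cells filled 58.6% and 65.0%.

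Within GCBs, the level of the cell cycle genes did not differ detectably between genotypes. None of the 50 genes was called in the YFP+ sort, where 1.30% of all 12174 genes tested were called (edgeR, 1 gene at an unadjusted p under 0.05, 0 with DESeq2 and 1 with the block), and none in the total sort, where 2.15% were (0 at an unadjusted p under 0.05 and 0 with DESeq2). The log2 fold changes in the YFP+ sort lay between -0.07 and 0.59, and those of the total sort between -0.57 (Ccne2) and 0.47 (Ube2c, which loads ubiquitin on cyclin B). The median of all genes tested was -0.01 and 0.01. Without the second control library 2 of the 50 were called in the YFP+ sort, and without either control library 1 in the total sort. In YFP+ GCBs Mcm5 was at 119 and 149 CPM in the control libraries and 146 and 164 CPM in the cKO libraries (log2 fold change 0.21 ± 0.22 (SE), adjusted p = 0.943). Pcna was at 321 and 408 CPM in control and 386 and 371 CPM in cKO (log2 fold change 0.05 ± 0.24). Rrm2 was at 159 and 244 CPM in control and 216 and 242 CPM in cKO. Tyms was at 63.2 and 72.7 CPM in control and 77.7 and 86.5 CPM in cKO. The genotypes overlapped for Mcm5, Pcna and Rrm2, and for all 4 the first control library was the lowest. Mki67 was at 1382 and 819 CPM in control and 1417 and 1136 CPM in cKO (log2 fold change 0.21 ± 0.30 (SE), adjusted p = 0.976). Top2a was at 638 and 768 CPM in control and 703 and 812 CPM in cKO. Cdk1 was at 146 and 187 CPM in control and 178 and 199 CPM in cKO. Ccnb1 was at 91.8 and 91.0 CPM in control and 99.6 and 103 CPM in cKO. Mki67 differed more between the control libraries than between the genotype means, and Ccnb1 was slightly higher in both cKO libraries. In total GCBs Mki67 was at 1539 and 1022 CPM in control and 1696 and 1214 CPM in cKO. Top2a was at 619 and 910.0 CPM in control and 688 and 721 CPM in cKO. Cdk1 was at 143 and 198 CPM in control and 188 and 155 CPM in cKO. Ccnb1 was at 81.0 and 78.2 CPM in control and 131 and 86.2 CPM in cKO. Mcm5 was there at 98.1 and 187 CPM in control and 141 and 151 CPM in cKO. Pcna was at 291 and 519.9 CPM in control and 398 and 379 CPM in cKO. Rrm2 was at 173 and 321 CPM in control and 186 and 231 CPM in cKO. Tyms was at 67.8 and 107 CPM in control and 77.4 and 72.7 CPM in cKO. For these 4 S phase genes the second control library was the highest. The control libraries of the total sort held only 60 and 49 GCBs. In cluster B4 alone, which has few cKO cells (61 and 40), none of the 50 genes was called in the YFP+ sort either, with 0.102% of all genes called (0 at an unadjusted p under 0.05 and 0 with DESeq2).

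A cell cycle inhibitor rose in the GCB class, whose cells lay mainly in cluster B4 in control and in cluster B14 in cKO. Cdkn2a, which encodes p16 and p19ARF, was at 2.60 and 7.49 CPM in the control libraries and 19.9 and 27.6 CPM in the cKO libraries in YFP+ GCBs (log2 fold change 2.18 ± 0.43 (SE), adjusted p = 0.049), and at 3.89 and 6.68 CPM in control and 18.1 and 27.0 CPM in cKO in total GCBs (log2 fold change 2.00 ± 0.40 (SE), adjusted p = 0.0165). All cKO libraries lay above all control libraries. In the total sort the control values rest on only 60 and 49 GCBs, against 174 and 240 in cKO. The call in total GCBs was lost without the second cKO library (adjusted p = 0.128), and DESeq2 gave 0.0648. Cyclin D2 (Ccnd2), which brings cells from G1 into S phase, fell in total GCBs and was at 136 and 43.9 CPM in control and 22.1 and 15.7 CPM in cKO (log2 fold change -2.24 ± 0.44 (SE), adjusted p = 0.0382). These were the only calls among the other cell cycle genes on the list, 1 of 146 tested in YFP+ GCBs and 2 of 145 in total GCBs, shares below the 1.30% and 2.15% of all genes called. The block called 9 in YFP+ and 4 in total GCBs, and without the second control library 10 were called in each. By cluster, Cdkn2a was at 22.4 and 28.3 CPM in the YFP+ cKO cells of cluster B14 and at 2.80 and 7.02 CPM in the YFP+ control cells of cluster B4, without TMM scaling. Within cluster B4 of the YFP+ sort, on 61 and 40 cKO cells, it was at 2.64 and 7.45 CPM in control and 3.73 and 15.6 CPM in cKO, with overlapping genotypes (log2 fold change 0.81 ± 0.67 (SE), adjusted p = 1). None of the 147 other cell cycle genes tested in that cluster was called (0.102% of all genes, 4 at an unadjusted p under 0.05, 0 with DESeq2, 2 with the block), so that a change within GCBs and the difference in clusters cannot be told apart.

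In activated B cells of the YFP+ sort, 1 of the 50 genes was called, a share below that of all genes (5.58% of 12998). Cdc20 was at 38.0 and 32.4 CPM in the control libraries and 68.9 and 75.9 CPM in the cKO libraries (log2 fold change 1.03 ± 0.22 (SE), adjusted p = 0.018), with both cKO libraries about 1.0 log2 higher. The call was lost without the second control library (adjusted p = 0.0593) and without the second cKO library (0.0563), 4 genes were called without the first cKO library, and 7 with the batch number as a block. With a Leiden resolution of 0.5 for the clusters, which leaves fewer cKO cells in the class, 11 were called. The medians were 0.25 over the S phase genes and 0.16 over the G2/M genes, against 0.02 over all genes tested. Mcm5 was at 51.6 and 55.6 CPM in control and 61.4 and 74.5 CPM in cKO (log2 fold change 0.34 ± 0.22). Top2a was at 253 and 204 CPM in control and 286 and 318 CPM in cKO (log2 fold change 0.40 ± 0.24). Cdk1 was at 47.3 and 48.2 CPM in control and 60.9 and 55.2 CPM in cKO. Ccnb1 was at 22.8 and 20.4 CPM in control and 29.2 and 26.7 CPM in cKO. These 4 genes were higher in both cKO libraries, by less than the test could detect. Pcna (191 and 203 CPM in control and 176 and 212 CPM in cKO), Tyms (51.2 and 38.4 CPM in control and 49.9 and 55.6 CPM in cKO) and Rrm2 (79.7 and 59.3 CPM in control and 66.5 and 90.4 CPM in cKO) overlapped between genotypes. Mki67 was at 405 and 165 CPM in control and 287 and 209.7 CPM in cKO, where batch 1 was above batch 2 in both genotypes. Among total activated B cells none was called (0.453% of all genes, 4 at an unadjusted p under 0.05, 0 with DESeq2), but 14 were with the block, and 47 of the 50 log2 fold changes were negative. There Rrm2 was at 64.9 and 75.0 CPM in control and 42.2 and 49.5 CPM in cKO (log2 fold change -0.61 ± 0.22 (SE), adjusted p = 0.579, and adjusted p = 2.82e-05 with the block). Pcna was at 187 and 235 CPM in control and 141 and 156 CPM in cKO (log2 fold change -0.51 ± 0.23 (SE), adjusted p = 0.837, and adjusted p = 5.15e-06 with the block). Mcm5 was at 60.1 and 55.5 CPM in control and 39.5 and 47.5 CPM in cKO. Tyms was at 33.8 and 42.6 CPM in control and 29.8 and 28.3 CPM in cKO. Top2a was at 226 and 234 CPM in control and 179 and 197 CPM in cKO. These 5 genes were lower in both cKO libraries. Mki67 (303 and 180.2 CPM in control and 272 and 164 CPM in cKO), Cdk1 (33.5 and 49.2 CPM in control and 36.8 and 30.5 CPM in cKO) and Ccnb1 (14.4 and 12.2 CPM in control and 17.0 and 9.78 CPM in cKO) overlapped.

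In cluster B7 alone, 5 of the 50 genes fell in YFP+ cKO cells, all of G2/M (1.2% of all genes called). In cKO these are the activated cells that remain beside cluster B11, to which most dividing ones were assigned, so that the values describe the cluster and do not separate a change within activated cells from that split. The log2 fold changes of all 50 genes were negative, with a median of -0.73 for S phase and -1.45 for G2/M. The 5 were Kif20a (a kinesin of the central spindle, 17.7 and 15.9 CPM in control and 3.51 and 4.81 CPM in cKO, log2 fold change -1.88 ± 0.33 (SE), adjusted p = 0.0206), Bub1b (a spindle checkpoint kinase, 37.0 and 26.5 CPM in control and 6.80 and 11.9 CPM in cKO, adjusted p = 0.0255), Ccna2 (58.2 and 41.3 CPM in control and 9.87 and 19.2 CPM in cKO, adjusted p = 0.0273), Ccnb2 (48.4 and 37.6 CPM in control and 7.24 and 17.8 CPM in cKO, adjusted p = 0.0415) and Cdc20 (40.5 and 24.4 CPM in control and 9.87 and 13.6 CPM in cKO, adjusted p = 0.0479). For each of the 5 both cKO libraries lay below both control libraries. The call of Cdc20 was lost without the first control library (adjusted p = 0.225) and without the first cKO library (0.0555), and that of Ccnb2 with the batch number as a block (0.0871), where 18 of the 50 were called. Of 142 other cell cycle genes 2 fell, Cenpa and Mcm10, and 34 were called with the block. Cdc20 was thus called in opposite directions in cluster B7 and in the class as a whole, which in cKO takes 33.1% and 48.1% of its cells from cluster B11, where Cdc20 was at 106 and 90.3 CPM. Total cells of cluster B7 again gave negative values for all 50 fold changes (medians -0.60 and -0.53), and none was called (0.0685% of all genes, 23 at an unadjusted p under 0.05, 0 with DESeq2, 5 with the block). This choice of cluster B7 was made after the data were seen.

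**Figure D3:**
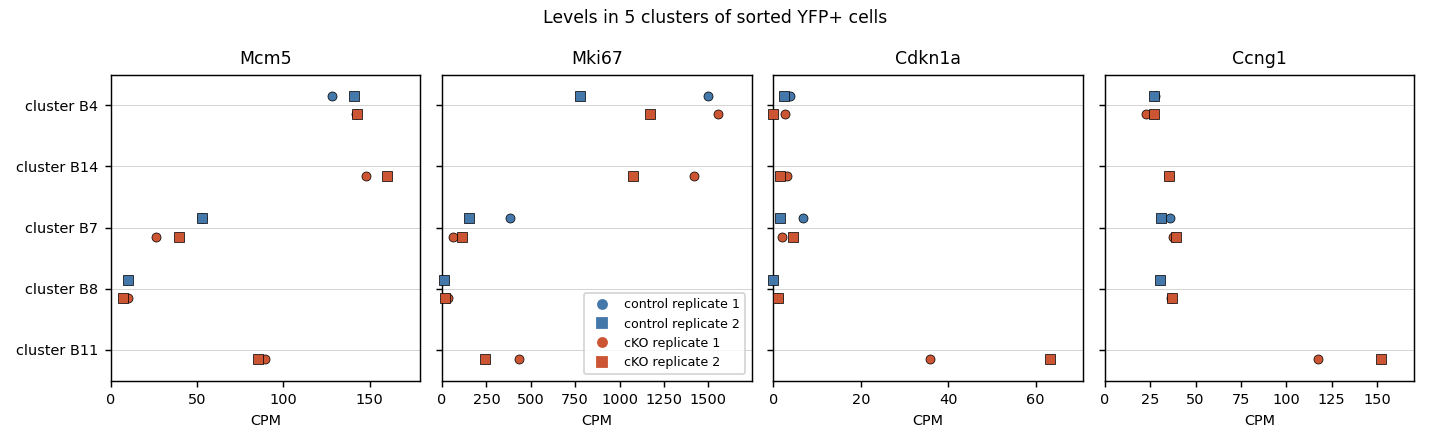
Level of Mcm5, Mki67, Cdkn1a and Ccng1 (CPM, linear axes) in 5 B cell clusters of the GCB and activated classes in the YFP+ sort, 1 point per library with at least 20 cells of the cluster, blue for control and orange for cKO. In cluster B11 of the cKO libraries Cdkn1a was at 35.9 and 63.3 CPM, compared with at most 6.71 CPM in cluster B7.

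The CDK inhibitor Cdkn1a (p21), which stops cells before S phase, was the cell cycle gene with the largest rise in YFP+ activated B cells. It was at 5.29 and 1.39 CPM in the control libraries and 22.9 and 52.2 CPM in the cKO libraries (log2 fold change 3.35 ± 0.55 (SE), adjusted p = 0.00789). Cyclin G1 (Ccng1), like Cdkn1a a well-known target of p53, was at 32.1 and 31.0 CPM in control and 87.0 and 134 CPM in cKO (log2 fold change 1.80 ± 0.27 (SE), adjusted p = 0.00201). Both genes were higher in each cKO library than in each control library. The mitotic activator Mybl2 was at 21.8 and 18.1 CPM in control and 47.3 and 41.1 CPM in cKO (log2 fold change 1.14 ± 0.23 (SE), adjusted p = 0.013), and the mitotic genes Melk (adjusted p = 0.0247), Cenpw (0.0383) and Cdca2 (0.0398) rose with it. Rb1, the retinoblastoma protein that holds E2F, fell and was at 135 and 112 CPM in control and 73.0 and 47.9 CPM in cKO (adjusted p = 0.0352). Myc, which drives entry into the cycle, also fell and was at 205 and 298 CPM in control and 112 and 139 CPM in cKO (adjusted p = 0.041). In all 6 of 147 other cell cycle genes rose and 2 fell, a share near that of all genes called (5.58%), and 24 were called with the block. The calls of 5 of them depended on single libraries. Melk was lost without the second control library (adjusted p = 0.0714), Rb1 without the first control (0.0774) or second cKO library (0.358) and Myc without the second control (0.258) or first cKO library (0.0846). Cenpw was lost without either control (0.0871 and 0.102) or the second cKO library (0.209), and Cdca2 without any one of the 4 (0.0613 to 0.144). By cluster, without TMM scaling, Cdkn1a was at 35.9 and 63.3 CPM and Ccng1 at 118 and 152 CPM in the YFP+ cKO cells of cluster B11. In cluster B7 Cdkn1a lay between 0.854 and 6.71 CPM and Ccng1 between 23.0 and 39.0 CPM over all libraries, and in cluster B8 Cdkn1a was at 0.969 and 1.06 CPM in the YFP+ cKO libraries. Mki67 was at 435 and 241 CPM and Mcm5 at 89.5 and 85.3 CPM in those cells of cluster B11, both below their levels in YFP+ cKO GCBs. Cdkn1a and cell cycle genes were thus expressed in the same cluster, most of whose cells were cycling. Cdkn1a is one of the leading genes of cluster B11 but was not used in the clustering, and its level there is a description.

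YFP+ plasma cells had lower levels of most of the 50 genes in cKO, and none passed the test (1.44% of all genes called, 22 of the 50 at an unadjusted p under 0.05, 1 with DESeq2). With the batch number as a block 22 were called, and without the first control library 6. All 26 G2/M genes had negative log2 fold changes (-1.14 to -0.41), as did 23 of the 24 S phase genes. Mki67 was at 548 and 423 CPM in the control libraries and 259.7 and 195 CPM in the cKO libraries (log2 fold change -1.09 ± 0.30 (SE), adjusted p = 0.099, and 6.07e-05 with the block). Cdk1 was at 55.9 and 75.7 CPM in control and 39.4 and 29.2 CPM in cKO. Top2a was at 212 and 268 CPM in control and 144 and 135 CPM in cKO. For these 3 and Ccnb1 (30.8 and 28.8 CPM in control and 24.4 and 13.8 CPM in cKO) both control libraries were higher. Rrm2 was at 74.1 and 184 CPM in control and 34.9 and 79.7 CPM in cKO. Pcna was at 93.8 and 170.3 CPM in control and 64.2 and 101 CPM in cKO. For both, batch 2 lay above batch 1 in each genotype. Mcm5 (26.5 and 44.5 CPM in control and 22.1 and 28.0 CPM in cKO) and Tyms (24.8 and 44.3 CPM in control and 22.9 and 25.6 CPM in cKO) behaved likewise. Of the other cell cycle genes 1 of 146 rose, Cdkn1a, which was at 2.55 and 4.12 CPM in control and 10.1 and 12.6 CPM in cKO (log2 fold change 1.71 ± 0.36 (SE), adjusted p = 0.0196), a call lost without either control library or without the second cKO library, and 28 were called with the block. The cKO libraries held 112 and 97 plasma cells, against 900 and 1056 in control. Among the 41 to 98 plasma cells of total libraries none of 47 was called (0.0778% of all genes, 5 at an unadjusted p under 0.05, 0 with DESeq2, 7 without the first control library).

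Memory B cells of the YFP+ sort showed the most calls, on few cKO cells. Of 49 genes tested 43 rose, 17 of S phase and all 26 of G2/M, where 3.90% of all genes were called. Cdc20 was at 2.85 and 7.06 CPM in the control libraries and 61.7 and 61.8 CPM in the cKO libraries (log2 fold change 3.45 ± 0.37 (SE), adjusted p = 1.98e-11). Ccnb2 was at 5.04 and 13.5 CPM in control and 95.4 and 105 CPM in cKO and Birc5 (survivin, of the chromosomal passenger complex) at 7.01 and 15.4 CPM in control and 104 and 117 CPM in cKO. The next lowest p-values were those of Cdca8, Cenpe, Cdca3, Ccna2, Tpx2, Hmmr, Kif20a, Bub1b and Cenpf, with log2 fold changes of 2.56 to 3.29. Of the S phase genes Rrm2 was at 6.35 and 6.44 CPM in control and 80.0 and 41.8 CPM in cKO (log2 fold change 3.12 ± 0.36 (SE), adjusted p = 1.05e-10). Clspn was at 4.16 and 2.91 CPM in control and 30.9 and 36.8 CPM in cKO. Mcm5 was at 6.57 and 9.35 CPM in control and 43.5 and 43.5 CPM in cKO. Uhrf1, Tyms, Cdc45, Mcm7, Mcm3, Mcm4, Mcm2, Rrm1 and Dut followed, with log2 fold changes of 1.39 to 2.73. Every one of the named genes was higher in both cKO libraries than in both control libraries. The cKO libraries held 61 and 51 such cells, 11 and 9 of them cycling, against 637 and 870 in control, and 27 genes were called without the first cKO library. With a Leiden resolution of 1.5 none of the 50 was called, but the class then also took in a cluster that scored highest for naive B markers and held 30 and 23 control and 880 and 642 cKO cells of the YFP+ sort, so that it compares other cells. The summed level of 8 GCB markers in these cells was 163 and 161 CPM in control and 200.2 and 241 CPM in cKO (7 and 6 of the 8 detected, Nuggc at 0 in both cKO libraries), and their part in the result was not tested. Of 135 other cell cycle genes 55 rose and 2 fell (Rb1 and Ccnd2), with Cks1b (12.5 and 17.5 CPM in control and 121 and 139 CPM in cKO), Kif4, Kif15, Cdkn2a (1.09 and 1.87 CPM in control and 16.8 and 30.1 CPM in cKO), Racgap1, Pole2, Ncapd2, Cenpw, Spc24 and Nek2 having the lowest p-values. In place of these 57, 34 were called without the first control library and 28 without the first cKO library.

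The remaining B cell classes gave few calls. In YFP+ B1 cells, Cenpe, which carries chromosomes along the spindle, rose and was at 7.97 and 12.6 CPM in control and 29.3 and 25.9 CPM in cKO (log2 fold change 1.41 ± 0.29 (SE), adjusted p = 0.0255), 1 of 48 tested, with 2.02% of all genes called. The kinesin Kif4 rose among 132 other cell cycle genes (1.44 and 2.47 CPM in control and 7.57 and 7.36 CPM in cKO, adjusted p = 0.0467), a call lost without the first control (0.14), the first cKO (0.118) or the second cKO library (0.107), while 37 were called with the block and 20 without the second control library. All 26 G2/M genes had positive fold changes there (median 1.03), 20 of the 50 were called with the block, 21 without the second control library, 5 without the second and 2 without the first cKO library, but none with a Leiden resolution of 0.5. In YFP+ interferon-response B cells all 19 G2/M genes tested had negative fold changes (median -1.63), none of 38 was called (0.441% of all genes, 28 at an unadjusted p under 0.05, 2 with DESeq2, 10 with the block), and without the first control library 32 were, without the first cKO library 2 and without the second 7. In cluster B13 alone 13 of the 26 G2/M genes passed the filter on low counts, and 12 of these had positive fold changes (median 0.81). A gene can pass that filter through the genotype where it is higher. The signs in the class and in the cluster are therefore a description. Top2a rose in cluster B13, at 17.2 and 15.9 CPM in control and 69.8 and 80.3 CPM in cKO (log2 fold change 2.05 ± 0.38 (SE), adjusted p = 0.0142), 1 of 28 genes tested with 0.997% of all genes called. That call was lost without the first control library (adjusted p = 0.0598). In YFP+ T-bet+ B cells none of 50 was called (0.0180% of all genes, 5 at an unadjusted p under 0.05, 0 with DESeq2 and 0 with the block). The second cKO library of 33 cells stood above the first of 44 cells for Top2a (142 and 135 CPM in control and 70.0 and 249.9 CPM in cKO), Mki67 (233 and 143 CPM in control and 171 and 273 CPM in cKO), Rrm2 (27.7 and 39.0 CPM in control and 12.4 and 46.8 CPM in cKO) and Tyms (19.0 and 25.8 CPM in control and 16.5 and 36.4 CPM in cKO). Cdk1 (28.0 and 25.1 CPM in control and 22.7 and 33.8 CPM in cKO) and Ccnb1 (19.9 and 18.4 CPM in control and 22.7 and 18.2 CPM in cKO) overlapped between genotypes, as did Mcm5 (24.9 and 42.0 CPM in control and 26.8 and 20.8 CPM in cKO), and Pcna was at 90.5 and 127 CPM in control and 70.0 and 46.8 CPM in cKO (log2 fold change -0.88 ± 0.38 (SE), adjusted p = 1). In total MZB (marginal zone B, 48 tested), B1 (37), transitional B (38) and interferon-response B cells (32) and in YFP+ MZB cells (43), none was called, where 0.0354%, 0.162%, 0.0189%, 0.212% and 0.240% of all genes were. At an unadjusted p under 0.05 there were 0, 3, 7, 2 and 4, DESeq2 called 0 in each, and the block called 0, 2, 5, 0 and 2. Without the first control library 1, 5, 1, 2 and 0 were called, without the second 0, 0, 0, 1 and 0, without the first cKO library 5, 0, 1, 0 and 0 and without the second 0, 2, 0, 0 and 0.

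Naive B cells held the 50 genes at low levels in both genotypes. None of 45 tested was called in the total sort (0.0469% of all genes, 2 at an unadjusted p under 0.05, 0 with DESeq2, 4 with the block), and none of 50 in the YFP+ sort (0.338%, 4 at an unadjusted p under 0.05, 0 with DESeq2, 1 with the block and 1 without the first cKO library). In the YFP+ sort Mki67 was at 11.4 and 12.7 CPM in the control libraries and 12.5 and 11.2 CPM in the cKO libraries (log2 fold change -0.02 ± 0.22). Top2a was at 8.97 and 21.1 CPM in control and 16.9 and 22.2 CPM in cKO. Cdk1 was at 1.95 and 3.10 CPM in control and 2.48 and 1.91 CPM in cKO. Ccnb1 was at 1.95 and 2.15 CPM in control and 0.915 and 2.11 CPM in cKO. Genotypes overlapped for all 4. Rrm2 (4.14 and 4.17 CPM in control and 2.59 and 2.04 CPM in cKO, log2 fold change -0.82 ± 0.33 (SE), adjusted p = 0.484) and Tyms (3.22 and 3.5 CPM in control and 2.56 and 2.16 CPM in cKO) were lower in both cKO libraries, whereas Mcm5 (8.85 and 11.3 CPM in control and 11.2 and 12.2 CPM in cKO) and Pcna (52.6 and 61.4 CPM in control and 49.9 and 53.5 CPM in cKO) overlapped. In the total sort, Mki67 was at 3.91 and 2.57 CPM in control and 4.69 and 6.63 CPM in cKO (log2 fold change 0.79 ± 0.32 (SE), adjusted p = 0.731, and 0.0425 with the block). Top2a was at 7.45 and 8.24 CPM in control and 8.90 and 11.2 CPM in cKO. Mcm5 was there at 10.1 and 12.7 CPM in control and 9.12 and 10.7 CPM in cKO. Pcna was at 46.1 and 55.9 CPM in control and 46.2 and 52.5 CPM in cKO. Rrm2 was at 1.79 and 2.51 CPM in control and 1.48 and 1.77 CPM in cKO. Tyms was at 1.30 and 1.71 CPM in control and 1.52 and 1.81 CPM in cKO. Cdk1 (0.870 and 0.909 CPM in control and 0.781 and 1.34 CPM in cKO) and Ccnb1 (0.707 and 0.856 CPM in control and 0.695 and 0.869 CPM in cKO) overlapped between genotypes at the lowest of these levels. The summed GCB markers in naive B cells were at 118 and 134 CPM in control and 214 and 192 CPM in cKO of the YFP+ sort.

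The share of cycling T cells in the total sort was higher in both cKO libraries, and no T cell class passed the test with all libraries. Without the first cKO library Treg (adjusted p = 0.00658) and naive CD4 T cells (0.00174) did. Cycling cells made up 3.09% and 3.43% in the control libraries and 5.91% and 10.2% in the cKO libraries of all T cells, and 5.92% and 6.92% in the control libraries and 8.56% and 14.8% in the cKO libraries of regulatory T cells (Treg, log2 ratio 0.88 ± 0.59, adjusted p = 0.668). The Treg class joins clusters that the genotypes filled differently: cluster T9 held 78.9% and 72.7% of control and 15.7% and 6.33% of cKO Treg, and cluster T5, led by Il1rl1, Klrg1 and Areg, the rest. Cycling cells made up 4 of 37 and 5 of 43 scored control cells and 27 of 276 and 78 of 508 cKO cells in cluster T5, and 6 of 132 and 6 of 116 control cells and 1 of 51 and 2 of 32 cKO cells in cluster T9, with overlapping genotypes in both. Memory CD8 T cells were at 4.0% and 1.75% in the control libraries and 4.25% and 9.75% in the cKO libraries. This class joins cluster T4, which scored highest for naive CD8 T markers and held 36 of 54 and 34 of 62 control and 421 of 458 and 534 of 598 cKO cells, with cluster T14, which scored highest for effector CD4 markers. Cluster T7, which scored highest for memory CD8 T markers (185 and 294 control and 110 and 71 cKO cells), was left unnamed, so that genotype and makeup cannot be told apart in the class. Follicular helper T cells (Tfh) were at 9.76% and 5.88% in the control libraries and 7.75% and 13.6% in the cKO libraries, the control values resting on 4 of 41 and 1 of 17 cells. Naive CD4 T cells were at 1.39% and 1.49% in the control libraries and 0.726% and 4.91% in the cKO libraries, a background level in 3 of the 4 libraries, with the second cKO library apart. Cluster T1 held 94.3% and 88.6% of the control and 38.0% and 17.7% of the cKO naive CD4 T cells and cluster T3 the rest, and the second cKO library was the highest in both clusters. Among cycling T cells, Tfh made up 4.71% and 0.952% in control and 18.7% and 29.2% in cKO, Treg 11.8% and 10.5% in control and 18.1% and 25.1% in cKO and memory CD8 T cells 2.35% and 0.952% in control and 12.3% and 18.2% in cKO. Of control library 2 only 18 Tfh were found, too few for a test of the genes.

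In the Treg class as a whole, 4 of 47 genes rose, all of G2/M, with 1.11% of all genes called, and none was called within either of its clusters. Cluster T5 held 38 and 47 control cells and 289 and 533 cKO cells, and none of 45 genes tested was called there (0.349% of all genes, 10 at an unadjusted p under 0.05, 0 with DESeq2, 3 with the block, 2 without the first cKO library), with median log2 fold changes of 0.75 for S phase and 0.47 for G2/M. In cluster T9, with 142 and 125 control cells and 54 and 36 cKO cells, only 6 genes passed the filter on low counts, and none was called (0% of all genes, 1 at an unadjusted p under 0.05, 0 with DESeq2, 1 without the second control library). The values of the class that follow therefore do not separate a change within Treg from a change in their makeup. Ccnb2 was at 10.4 and 8.51 CPM in the control libraries and 37.8 and 50.1 CPM in the cKO libraries (log2 fold change 2.11 ± 0.33 (SE), adjusted p = 0.0172), and in cluster T5 at 9.76 and 27.4 CPM in control and 45.5 and 55.4 CPM in cKO (log2 fold change 1.44 ± 0.45 (SE), adjusted p = 0.333). Cdca3, which helps to start mitosis, was at 12 and 7.45 CPM in control and 38.7 and 48.4 CPM in cKO (adjusted p = 0.0213). Ube2c was at 18.4 and 16.0 CPM in control and 94.1 and 53.6 CPM in cKO (0.0237) and Cdca8, of the chromosomal passenger complex, at 17.6 and 11.7 CPM in control and 43.2 and 63.3 CPM in cKO (0.0321). In all 4 the cKO libraries were above the control libraries. Cdk1 was at 12.8 and 4.26 CPM in control and 24.3 and 47.9 CPM in cKO (log2 fold change 1.93 ± 0.47 (SE), adjusted p = 0.0803). Ccnb1 was at 5.59 and 6.38 CPM in control and 15.8 and 17.7 CPM in cKO. Top2a was at 83.0 and 48.9 CPM in control and 103 and 160.3 CPM in cKO. Mki67 was at 175 and 51.1 CPM in control and 219.8 and 221 CPM in cKO, and in cluster T5 at 494 and 165 CPM in control and 264 and 244 CPM in cKO, where the genotypes overlapped. Mcm5 was at 16.0 and 11.7 CPM in control and 20.3 and 29.7 CPM in cKO. Tyms was at 15.2 and 17.0 CPM in control and 23.0 and 43.1 CPM in cKO. Both were higher in both cKO libraries, whereas Pcna (84.6 and 78.7 CPM in control and 83.8 and 132 CPM in cKO) and Rrm2 (32.7 and 7.45 CPM in control and 19.4 and 58.1 CPM in cKO) overlapped. Over the class the medians were 0.87 over S phase genes and 1.44 over G2/M genes, and 46 of 47 fold changes were positive. With the block 33 genes were called, and without 1 library 19 (first control), 9 (second control), 28 (first cKO) and 6 (second cKO). Of the other cell cycle genes 2 of 122 rose, Cdc25b (the phosphatase that activates Cdk1, 26.3 and 20.2 CPM in control and 86.0 and 86.0 CPM in cKO, log2 fold change 1.83 ± 0.28 (SE), adjusted p = 0.015) and Cdkn1a (3.19 and 10.6 CPM in control and 29.3 and 55.1 CPM in cKO, log2 fold change 2.55 ± 0.49 (SE), adjusted p = 0.0351). Myc fell and was at 75.0 and 98.9 CPM in control and 18.0 and 30.9 CPM in cKO (log2 fold change -1.76 ± 0.31 (SE), adjusted p = 0.0237). In place of these 3, DESeq2 called 5 and the block 55, and 16 were called without the first control library, 12 without the second, 27 without the first cKO library and 5 without the second. None of the 114 other cell cycle genes tested in cluster T5 or the 58 in cluster T9 was called (4 and 0 with the block). The choice of these clusters was made after the data were seen. The summed B-lineage markers in Treg, 73.0 and 131 CPM in control and 86.4 and 102 CPM in cKO, overlapped.

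In all T cells together, 3 of 50 genes rose, with 1.86% of all genes called. They were Ube2c (7.86 and 9.39 CPM in control and 32.5 and 31.2 CPM in cKO, log2 fold change 1.88 ± 0.20 (SE), adjusted p = 0.0196), Ccna2 (4.48 and 5.05 CPM in control and 13.4 and 20.3 CPM in cKO, adjusted p = 0.0354) and Mki67 (44.0 and 35.0 CPM in control and 93.1 and 119 CPM in cKO, adjusted p = 0.0494), each higher in both cKO libraries. The call of Mki67 was lost without the second cKO library (adjusted p = 0.067). Of 149 other cell cycle genes the mitotic kinase Nek2 rose (0.922 and 0.654 CPM in control and 3.63 and 3.84 CPM in cKO, adjusted p = 0.0411), and in place of this 1 DESeq2 called 24, the block 82, and 3 (without the second cKO library) to 55 (without the first) were called with 1 library left out. The median log2 fold change was 0.64 for S phase and 1.53 for G2/M genes, 44 genes were called with the block, and 5 (without the second cKO library) to 34 (without the first) with 1 library left out. Clusters of 792 and 239 cells led by B cell genes were part of this sum. In naive CD4 T cells none of 32 was called (0.0670% of all genes, 13 at an unadjusted p under 0.05, 1 with DESeq2), 3 with the block, 3 without either control library and 29 without the first cKO library. Neither cluster T1 nor cluster T3 alone gave a call (of 24 and 16 tested, 0.0102% and 0.385% of all genes, 7 and 1 at an unadjusted p under 0.05, 0 with DESeq2 in each). Without the first cKO library 20 and 2 were called in them. Mki67 was at 7.51 and 1.14 CPM in control and 3.45 and 85.3 CPM in cKO. Top2a was at 9.78 and 7.41 CPM in control and 8.5 and 99.6 CPM in cKO. The second cKO library alone was high for both, and was the highest for Rrm2 (2.27 and 0.951 CPM in control and 3.98 and 22.1 CPM in cKO) and Tyms (4.54 and 4.75 CPM in control and 8.23 and 18.7 CPM in cKO). Mcm5 was at 7.80 and 6.84 CPM in control and 7.17 and 14.1 CPM in cKO. Pcna was at 66.8 and 68.1 CPM in control and 72.2 and 89.4 CPM in cKO, and Cdk1 and Ccnb1 did not pass the filter on low counts. In effector CD4 (44 tested), naive CD8 (26) and memory CD8 T cells (36) none was called, where 0.0121%, 0.0596% and 0.613% of all genes were. At an unadjusted p under 0.05 there were 0, 8 and 16, DESeq2 called 0 in each, and the block gave 0, 2 and 14. Without the first cKO library 13 genes were called in naive CD8 T cells and 5 in memory CD8 T cells, where leaving out the first control library also gave 5 and the second 1, and a Leiden resolution of 1.5 gave 16, where the class joined a cluster of 137 and 195 control and 28 and 12 cKO cells with a cluster of 18 and 29 control and 38 and 65 cKO cells.

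**Figure D4:**
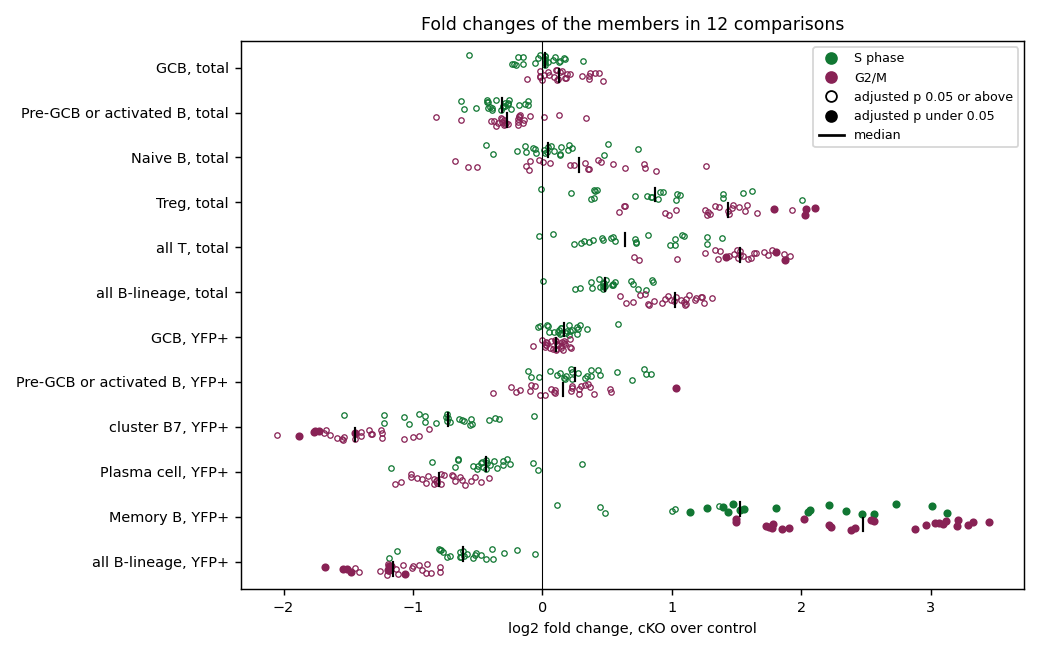
Log2 fold change (cKO over control) of each of the 50 genes tested in 12 comparisons, S phase in green and G2/M in purple, filled points for genes called by the edgeR test and a bar at the median of each set. The medians of the G2/M genes shown ran from -1.45 (cluster B7, YFP+) to 2.48 (memory B, YFP+).

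Taking all B-lineage cells as 1 sum, the direction differed between the sorts. In the YFP+ sort 8 of the 50 genes fell, all of G2/M, and 7.60% of all genes were called. Cenpf was at 79.1 and 116 CPM in the control libraries and 36.2 and 31.1 CPM in the cKO libraries (log2 fold change -1.54 ± 0.28 (SE), adjusted p = 0.0215). Plk1 was at 31.1 and 48.7 CPM in control and 16.0 and 12.5 CPM in cKO (adjusted p = 0.0251). Ccnb1 was at 38.2 and 51.6 CPM in control and 22.2 and 17.3 CPM in cKO (0.0363). The other 5 were Ttk, Cenpe, Ccnb2, Bub1b and Hmmr, with log2 fold changes of -1.06 to -1.68. All cKO values lay below all control values. Mki67 was at 585 and 493 CPM in control and 253 and 151 CPM in cKO (log2 fold change -1.42 ± 0.35 (SE), adjusted p = 0.0559, and 0.00146 with the block). Top2a was at 270.4 and 438 CPM in control and 194 and 186 CPM in cKO. Rrm2 was at 70.8 and 158 CPM in control and 48.5 and 51.7 CPM in cKO. All 50 fold changes were negative (medians -0.61 for S phase and -1.15 for G2/M), 23 genes were called with the block, 47 without the first control library, 14 without the second, 5 without the first cKO library and 0 without the second. Of 149 other cell cycle genes 20 fell, 17 of them mitotic (Cdc25b, Nek2, Nuf2, Ckap2l, Sgo2a, Cdc25c, Cit and Knl1 had the lowest p-values) together with E2f7, Foxm1 and Pola1, and 2 rose, Cdkn1a (2.34 and 3.38 CPM in control and 11.2 and 22.7 CPM in cKO, log2 fold change 2.56 ± 0.38 (SE), adjusted p = 0.0123) and Ccng1, the latter a call lost without the second cKO library (0.5). In place of these 22, DESeq2 called 41 and the block 61, and 83 were called without the first control library, 31 without the second, 11 without the first cKO library and 4 without the second. The total sort gave positive fold changes for all 50 (medians 0.48 and 1.03), and none was called (0.0136% of all genes, 34 at an unadjusted p under 0.05, 17 with DESeq2). Of 149 other cell cycle genes 0 were called there (16 with DESeq2, 71 with the block). Of the 50, 44 were called with the block, and 12 and 13 without the first and second control library and 21 and 7 without the first and second cKO library. Ccnb1 was at 6.43 and 4.83 CPM in control and 14.4 and 12 CPM in cKO. Mki67 was at 107 and 62.5 CPM in control and 190.4 and 170.2 CPM in cKO. Mcm5 was at 16.6 and 21.5 CPM in control and 23.2 and 30.3 CPM in cKO. All 3 were higher in both cKO libraries.

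The difference between the sorts was tested as an interaction of genotype and sort over all 8 libraries. In all B-lineage cells 15 of the 50 genes were called, all of G2/M and all lower in the YFP+ sort, with 1.62% of all genes called. Ccnb2 had an interaction of -2.93, Mki67 of -2.53 and Ccnb1 of -2.43 on the log2 scale (adjusted p = 0.0364, 0.0487 and 0.0285). With the genotype and batch number as a block, which pairs the total and the YFP+ library of each, 47 were called. Of all 16380 genes, 3104 were called with this block. The call of Cenpe was lost with this block (adjusted p = 0.0375 without it and 0.0633 with it, edgeR). Within single classes none of the 50 was called in naive B, MZB, B1, interferon-response B, activated B, GCB or plasma cells (0 to 18 at an unadjusted p under 0.05). No gene of any kind was called in these classes without the block, so this is not a result about the 50 genes. The fit without the block does not pair the sorts. Total and YFP+ libraries of the same genotype and batch number may come from the same mice, which the labels do not state. Memory and T-bet+ B cells were not tested. The absence of calls therefore does not tell whether the difference lies within classes or in their makeup. With the same block 21 were called in activated B cells (15 of S phase and 6 of G2/M, all higher in the YFP+ sort), 3 in plasma cells and 2 in interferon-response B cells. Of all genes, 1247 of 11326, 115 of 9743 and 26 of 9134 were called in these 3 classes.

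The cycling B-lineage cells of the YFP+ sort, taken as 1 sum per library, are given as a description with no test. They were chosen by the 50 genes, which are used in the same phases as the other cell cycle genes, and GCBs made up 67.0% and 76.2% of them in control and 24.7% and 14.7% in cKO, so that genotype and cell type cannot be told apart here. Cdkn1a was at 3.99 and 3.17 CPM in the control libraries and 26.8 and 41.9 CPM in the cKO libraries. Ccng1 was at 26.8 and 32.1 CPM in control and 92.4 and 118 CPM in cKO. Ccnd2 was at 106 and 83.8 CPM in control and 254 and 344 CPM in cKO. These 3 were higher in both cKO libraries, and Cdc25b, at 73.3 and 75.8 CPM in control and 27.9 and 19.2 CPM in cKO, was lower in both. The log2 fold changes of the 50 genes ran from -1.15 (Ccnb2) to -0.33 (Cdc20) for G2/M genes and from -0.62 (Rrm2) to 0.38 (Hells, a chromatin remodeler) for S phase genes.

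The balance of S phase to G2/M was measured as the log2 ratio of the UMIs summed over each set, in classes with at least 50 UMIs of each set in every library. GCBs had more G2/M than S phase UMIs, with -0.78 and -0.42 in control and -0.57 and -0.52 in cKO of the YFP+ sort. Naive B cells had more S phase UMIs (2.13 and 1.90 in control and 1.93 and 1.75 in cKO), with the S phase genes that resting cells also express. Activated B cells lay between, at -0.19 and 0.32 in control and -0.03 and 0.29 in cKO. The genotypes overlapped in each of these 3 classes. The sign of the ratio depends on which genes are listed and how abundant they are. In control YFP+ GCBs Mki67 and Top2a alone averaged 1136 and 710 CPM. The sign therefore does not tell which phase holds more cells, and the ratio serves to compare libraries. In all YFP+ B-lineage cells the balance was -0.69 and -0.34 in control and -0.09 and 0.26 in cKO, a shift of 0.60 toward S phase, and in all total B-lineage cells it was 0.30 and 0.85 in control and -0.14 and 0.14 in cKO, a shift of -0.57 toward G2/M. For all T cells it was 1.43 and 1.33 in control and 0.52 and 0.34 in cKO. In these 3 sums the genotypes did not overlap, and the exact permutation p was 0.333, the smallest that 2 against 2 libraries allow. Counted over cycling cells only, the difference was 0.48 in YFP+ B-lineage cells, -0.34 in all T cells (-0.95 over all cells) and -0.26 in total B-lineage cells, where the genotypes then overlapped. YFP+ memory B cells were at 0.43 and 0.55 in control and -0.38 and -0.82 in cKO, a difference of -1.09 that was -0.22 over cycling cells only, with overlapping genotypes, and had the opposite sign, 0.15, with a Leiden resolution of 1.5, where most cKO cells of the class came from a cluster that scored highest for naive B markers. In YFP+ cluster B7 the balance was higher in both cKO libraries by 0.82 (0.46 over cycling cells only). In naive CD4 T cells the second cKO library was at 0.12, against 2.68 to 3.21 in the other 3.

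**Figure D5:**
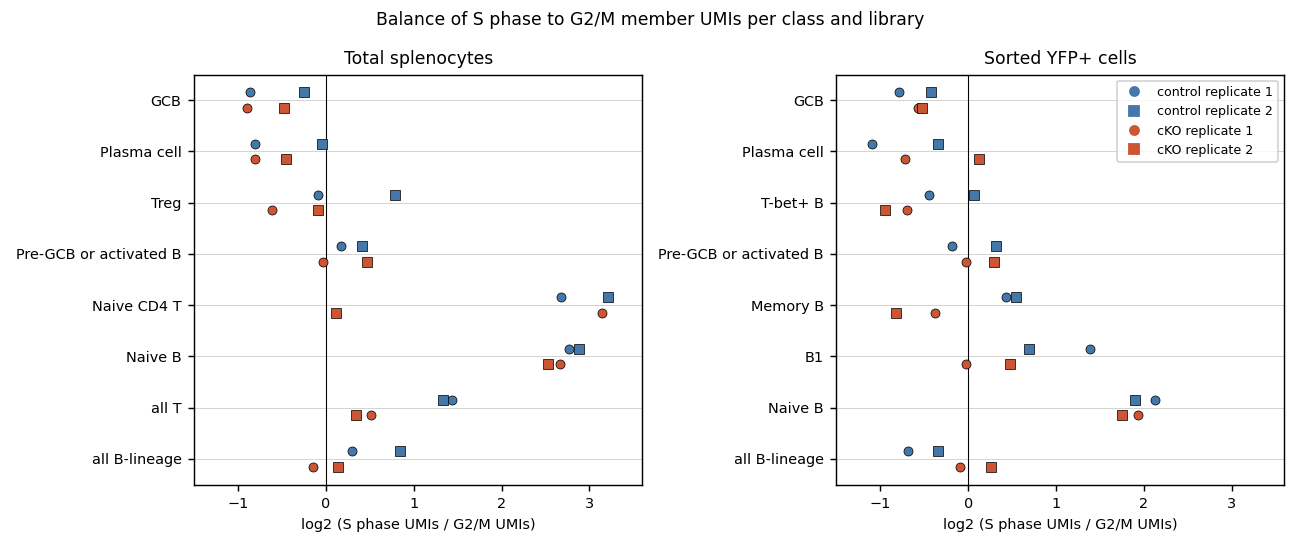
Balance of S phase to G2/M in each class and library, as the log2 ratio of summed S phase UMIs to summed G2/M UMIs, control and cKO, total sort and YFP+ sort. Points above 0 have more S phase UMIs. GCBs sat between -0.90 and -0.25 and naive B cells between 1.75 and 2.88 over all libraries.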

How the data were processed

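Cells of pooled mice were sorted and made into SeekOne DD 3′ single-cell libraries by the authors, who deposited raw UMI counts per gene and barcode. The submitters' processing notes name the builds GRCm38 and mm10. Aligner and annotation: not given in the sources used here. No value was normalized before deposit.

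Barcodes with more than 200 UMIs and 100 genes and at most 10% mitochondrial UMIs were kept (83704 of 83967). Cells were clustered (2000 variable genes scaled per batch, 30 components, 20 neighbours, Leiden resolution 1) with all cell cycle and histone genes left out. Clusters were named from fixed markers, with naming rules set after the clusters were seen and before any test between groups. These names are rebuilt from markers and can differ from those of the study for that reason. Doublets (0.957% to 2.85% of cells marked) were kept and removed in an alternative.

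UMIs were summed per library and class with at least 20 cells in each of 4 libraries and tested with edgeR (quasi-likelihood, robust, TMM, filterByExpr, prior count 2) within 1 sort, Benjamini-Hochberg over all genes. SE is the log2 fold change divided by the root of F. Cycling cell numbers were tested likewise, with scored cells as the offset, in classes with at least 100 scored cells per group. Shares rest on counting, and PCR and capture errors are outside their precision. The replicate number is the batch in the labels, so numbers pair the libraries, and deviations of same-numbered libraries correlated at 0.454 to 0.669 between groups (14031 genes). Alternatives were the batch block, DESeq2, no filter, leaving out each library, other thresholds and thinning, other resolutions, cell cycle genes kept and, chosen after the data were seen, clusters B4, B7, B13, T1, T3, T5 and T9 alone. A test planned for the other cell cycle genes among cycling B-lineage cells is void, since genes used in the same phases chose the cells, and nothing is read from it. Scripts were tested on simulated data with 200 changed genes.

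The members and the lists (150 other cell cycle genes) were chosen with earlier results of these data known. Named genes were Mcm5, Pcna, Rrm2, Tyms, Mki67, Top2a, Cdk1 and Ccnb1 in the main classes, called members (at most 12 per phase) and called pathway genes (at most 10), by lowest p. Total GCB, activated B, naive B, Treg and naive CD4 T cells and YFP+ GCB, activated B, plasma, T-bet+ and naive B cells were the main classes. Promoters were RefSeq. Software was Python 3.11.15, numpy 2.4.6, scipy 1.17.1, pandas 2.3.3, scanpy 1.11.5, igraph 0.11.9, R 4.3.3, edgeR 4.0.16 and DESeq2 1.42.0.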

Additional observations from a re-analysis of the deposited data

Results flagged for a closer look

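The interaction of genotype and sort passed the test for 15 of the 50 genes in all B-lineage cells, all of G2/M and all with a lower log2 fold change in the YFP+ sort than in the total sort.

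The cycling share of activated B cells was lower in cKO by 4.75 percentage points in the total sort (a difference of -4.75, both cKO libraries below both control libraries) and higher by 9.60 points in the YFP+ sort, where both were above. In cluster B7 alone it was lower in both cKO libraries of each sort. Most dividing activated YFP+ cells of cKO lay in cluster B11, so that a change within activated cells and this makeup cannot be told apart. The cycling share of all B-lineage cells was higher by 2.05 points in the total sort and differed by -17.8 points in the YFP+ sort. Without thinning the genotypes overlapped in the total sort, and the YFP+ shares were 43.8% and 48.4% in control and 33.9% and 36.5% in cKO. The S to G2/M balance of all B-lineage cells differed by -0.57 on the log2 scale in the total sort and by 0.60 in the YFP+ sort. Over cycling cells only these were -0.26, with overlapping genotypes, and 0.48. The thinned shares of all activated and of all B-lineage cells, and the balance over all cells, moved one way in every cKO library of one sort. They moved the opposite way in every cKO library of the other sort, and the difference between the sorts was not tested.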

How the results depend on the processing

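Without 1 library in turn, the number of the 50 genes called ran from 0 to 5 in total MZB, 0 to 5 in total B1, 0 to 1 in total transitional B, 0 to 2 in total interferon-response B, 0 to 1 in total GCB, 0 to 7 in total plasma cells, 0 to 29 in naive CD4 T, 6 to 28 in Treg, 0 to 13 in naive CD8 T, 0 to 5 in memory CD8 T, 7 to 21 in total B-lineage cells and 5 to 34 in all T cells. In the YFP+ sort it ran from 0 to 1 in naive B, 1 to 21 in B1, 0 to 32 in interferon-response B, 0 to 4 in activated B, 0 to 2 in GCB, 27 to 39 in memory B, 1 to 6 in plasma cells and 0 to 47 in all B-lineage cells. In these fits the lone library of a group is assumed to vary like the others. The counts within 1 sort in this section stand without the share of all genes called under the same setting. They are therefore no result about the 50 genes as a set. With the batch number as a block, the number called was 4 in total naive B, 2 in B1, 5 in transitional B, 14 in activated B, 2 in plasma cells, 3 in naive CD4 T, 33 in Treg, 2 in naive CD8 T, 14 in memory CD8 T, 44 in all B-lineage and 44 in all T cells of the total sort, and 1 in naive B, 2 in MZB, 20 in B1, 10 in interferon-response B, 7 in activated B, 1 in GCB, 22 in plasma cells and 23 in all B-lineage cells of the YFP+ sort. The block moved the count by less than 1.5 times in the other 6 comparisons. With the block, cluster B7 had 5 genes called in the total sort and 18 in the YFP+ sort, and cluster B4 had 1 in the YFP+ sort. With the genotype and batch number as the block, the interaction of genotype and sort was called for 2 genes in interferon-response B, 21 in activated B, 3 in plasma and 47 in all B-lineage cells. Of all genes it was called for 26 of 9134, 1247 of 11326, 115 of 9743 and 3104 of 16380. It was also called for 2 genes, Rrm2 and Cenpe, in all T cells (26 of all 13156 genes), of which the YFP+ libraries held 378 and 66 in control and 412 and 34 in cKO.

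With no filter on low counts the number called was 1 in total B1, 3 in transitional B, 6 in naive CD4 T, 27 in Treg, 8 in naive CD8 T, 13 in memory CD8 T, 4 in all B-lineage and 31 in all T cells, and 14, 18 and 13 in YFP+ B1, interferon-response B and all B-lineage cells. DESeq2 called 1 in naive CD4 T, 17 in total B-lineage, 25 in all T, 2 in YFP+ interferon-response B, 2 in YFP+ activated B, 1 in YFP+ plasma and 25 in YFP+ B-lineage cells. Where clusters were drawn with the cell cycle genes kept, the 50 genes help to choose the cells: a cluster of 1174 cells, 91.7% with an Mki67 UMI, was set apart and named B1 from its markers. Counts and ratios under this setting are void for that reason, and nothing is read from them: 31 were called in total and 48 in YFP+ activated B, 1 in Treg, 0 in YFP+ B1 and 1 in memory B cells. A Leiden resolution of 1.5 gave 16 in memory CD8 T, 2 in YFP+ B1 and 0 in memory B cells (the class then held 880 and 642 cKO cells of a naive-like cluster), and a resolution of 0.5 gave 0 in YFP+ B1 and 11 in YFP+ activated B cells. Removal of doublets moved 1 count, to 4 in YFP+ B1 cells. The cause of these moves was not tested. Chosen after the data were seen, cluster B7 alone gave 5 in the YFP+ sort, clusters T5 and T9 alone each gave 0 for Treg (0 in cluster T9 with the block too), cluster B13 alone gave 1 for YFP+ interferon-response B cells without and with the block, and cluster T1 alone gave 1 for naive CD4 T cells with the block.

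The log2 ratio of cycling shares passed the threshold with the block in YFP+ B1 (0.60), interferon-response B (-1.49), memory B (1.93) and plasma cells (-0.60), and in no other class. It also passed in YFP+ activated B cells thinned to 2000 UMIs (0.70), at a resolution of 0.5 (1.23) and with the cell cycle genes kept (2.20, void), in memory B cells with at least 8 UMIs (3.83) or thinned to 2000 (1.92), and in memory CD8 T cells at a resolution of 1.5 (2.88). In cluster B7 alone it was reversed in the YFP+ sort (-0.92, and -0.93 with the block), as it was in cluster B13 alone for YFP+ interferon-response B cells (0.82, and 0.77 with the block). It could not be tested in clusters T5 and T9, which have fewer than 100 scored cells of 1 genotype. Without 1 library it ran from -0.97 to 1.76 in naive CD4 T cells and from 0.42 to 1.2 in Treg. No class of either sort changed its side of the threshold without thinning, with at least 3 UMIs and with doublets removed.

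The S to G2/M balance moved by more than the spread between libraries when only cycling cells were used, to 0.32 in Treg, -0.26 in total B-lineage, -0.34 in all T, -1.38 in YFP+ naive B and -0.22 in YFP+ memory B cells. At a resolution of 1.5 it was -0.086 in total naive B, -0.41 in total activated B, 0.26 in YFP+ B1 and 0.15 in memory B cells, and at 0.5 it was -0.38 in YFP+ naive B cells. With the cell cycle genes kept (void) it was -2.16 in total activated B, -1.06 in YFP+ activated B and -0.64 in memory B cells. On simulated data with known changes, 21% of genes changed by 1.0 were called in YFP+ naive B cells (12424 genes) and 30% in YFP+ activated B cells (12998 genes), and 83% and 78% of those changed by 2.0. Smaller classes were not simulated.

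Of the 150 other cell cycle genes, the block called 25, 3, 3, 6, 3, 21, 4, 2, 8, 55, 2, 9, 71 and 82 in total naive B, MZB, B1, transitional B, interferon-response B, activated B, GCB, plasma, naive CD4 T, Treg, naive CD8 T, memory CD8 T, all B-lineage and all T cells, and 18, 5, 37, 6, 24, 9, 28 and 61 in YFP+ naive B, MZB, B1, interferon-response B, activated B, GCB, plasma and all B-lineage cells. DESeq2 called 1, 1, 1, 5, 16 and 24 in total naive B, activated B, GCB, Treg, all B-lineage and all T cells, 2, 2, 3, 2 and 41 in YFP+ naive B, B1, interferon-response B, GCB and all B-lineage cells. Without a filter 1, 1, 2, 12, 27, 2, 5, 1 and 53 were called in total naive B, interferon-response B, plasma, naive CD4 T, Treg, naive CD8 T, memory CD8 T, all B-lineage and all T cells, 3, 12, 12, 4 and 2 in YFP+ naive B, B1, interferon-response B, activated B and GCB. Without 1 library the counts ran from 1 to 2 in total naive B, 0 to 2 in MZB, 0 to 1 in interferon-response B, 0 to 2 in activated B, 1 to 10 in GCB, 0 to 2 in plasma, 0 to 27 in naive CD4 T, 5 to 27 in Treg, 0 to 6 in naive CD8 T, 0 to 2 in memory CD8 T, 2 to 24 in all B-lineage and 3 to 55 in all T cells. In the YFP+ sort they ran from 1 to 4 in naive B, 0 to 20 in B1, 1 to 33 in interferon-response B, 1 to 10 in GCB, 28 to 50 in memory B, 0 to 1 in T-bet+ B, 0 to 4 in plasma and 4 to 83 in all B-lineage cells. The void test among cycling B-lineage cells, from which nothing is read, called 49 in the YFP+ sort (87 with the block, 5 to 82 without 1 library) and 0 in the total sort (21 with the block, 1 to 13 without 1 library).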
